A study of Mus musculus with 6 samples.

Results

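The mitochondrial genome of the mouse encodes 37 genes, and all of them were found in the deposited table of 54532 genes by a symbol that starts with mt- in the GENCODE M21 annotation. They comprise 13 messenger RNAs, 2 ribosomal RNAs and 22 transfer RNAs. RNA was sequenced from heart ventricles of mouse embryos at E12.5, in 3 control libraries (labelled CTL) and 3 libraries from a conditional knockout of LSD1 (labelled LSD1-CKO, genotype LSD1-KO), here called knockout. LSD1, encoded by Kdm1a, is a histone demethylase of the nucleus. The labels give neither the Cre driver, the strain nor the number of embryos in a sample, nor whether the 3 samples of a genotype are different embryos or litters. What the p-values are set against is thus sample-to-sample spread, and some of it may be technical.

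Mitochondrial DNA is a small circle without introns that is transcribed from both strands as long precursors. Transfer RNAs lie between most of the other genes, and their excision releases the ribosomal and messenger RNAs, most of which then receive short poly(A) tails. All of the messenger RNAs encode subunits of the respiratory chain or of ATP synthase, which is why this genome matters to a tissue that contracts continuously. The rest of each complex, and every protein that copies or transcribes the circle, is made from nuclear genes. In this annotation 9 of the 37 genes, namely mt-Nd6 and 8 transfer RNAs, lie on the minus strand. The library kit does not mark strand, so reads from the opposite strand of a gene were counted with it.

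Values are FPKM, fragments scaled by gene length and by library size, as deposited. Whole reads were recovered from the steps of the FPKM values, and they summed to between 17898946 and 20076028 per library. Kdm1a was at 29.99, 29.7 and 22.8 FPKM in control replicates 1, 2 and 3 and at 10.7, 11.8 and 11.0 FPKM in knockout replicates 1, 2 and 3. It was lower in the knockout (log2 change -1.22, SE 0.11, limma adjusted p = 0.00274). The 9 ventricular cardiomyocyte markers stood between 16.6 FPKM (Irx4) and 8388 FPKM (Actc1) in the 6 libraries. Myl2, the ventricular regulatory light chain, stood between 3096 and 3567 FPKM. Among 4 atrial markers, Myl7 stood between 1894 and 2628 FPKM, while Sln, Nr2f2 and Nr2f1 stood between 1.51 and 9.47 FPKM. The lung markers Sftpc and Nkx2-1 stood at no more than 0.0524 FPKM. Over all 14149 genes whose mean reached 0.5 FPKM, limma called 1.91% higher and 0.466% lower in the knockout, at a Benjamini-Hochberg adjusted p under 0.05.

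A copy of part of the mitochondrial genome on chromosome 1 bears on how the levels can be read, and it is described first. The annotated transcripts of 7 pseudogenes, all within chr1:24611535-24616197 of GRCm38 and on its minus strand, follow the mitochondrial map in order, from within mt-Co1 (mitochondrial position 6381) to within mt-Nd4 (position 11042). Of these 7, 5 keep 1 constant offset to the mitochondrial map and the other 2 are displaced by 1 base. The copies of mt-Co2 (Gm28661), mt-Atp6 (Gm10925), mt-Co3 (Gm28437), mt-Nd4l (Gm10222) and mt-Nd4 (Gm28439) have 0 differing bases over their 681, 678, 783, 294 and 876 annotated bases. The copy of mt-Nd3 (Gm28438) differs at 1 of 345 bases, T3C, where positions are counted from the first base of the gene and the mitochondrial base comes first. The copy of mt-Co1 (Gm29216) covers the last 492 bases of that gene, and its 6 differing bases lie at its outer end.

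The edge of the copy is shown because it marks where mt-Co1 and the chromosome 1 sequence become identical. Both stretches come from the GENCODE M21 transcripts of GRCm38, with differing bases in capitals. The mitochondrial stretch is chrM:6381-6440, plus strand, bases 1054 to 1113 of mt-Co1, and the nuclear one is chr1:24616138-24616197, minus strand.
mt-Co1: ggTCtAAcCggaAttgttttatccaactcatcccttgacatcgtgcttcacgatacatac
Gm29216: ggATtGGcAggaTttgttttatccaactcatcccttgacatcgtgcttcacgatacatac
The differences are T1056A, C1057T, A1059G, A1060G, C1062A and A1066T, and the 479 bases from there to the end of mt-Co1 are identical. The start of mt-Nd3 shows how little separates the other genes from their copies. The mitochondrial stretch is chrM:9459-9518, plus strand, and the nuclear one is chr1:24613060-24613119, minus strand, with the single difference in capitals.
mt-Nd3: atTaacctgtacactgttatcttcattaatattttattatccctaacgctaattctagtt
Gm28438: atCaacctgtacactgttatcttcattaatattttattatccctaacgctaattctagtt

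The levels of the messenger RNAs divided along the edges of that copy. The 5 messenger RNAs outside it had mean levels between 492 and 6209 FPKM over the 6 libraries. The 6 that lie inside it had means between 1.25 and 124 FPKM, and all 6 stood below every messenger RNA outside it. mt-Co1 and mt-Nd4, which reach into it, had means of 8512 and 1037 FPKM. How reads that match both places were counted is not given in the sources used here, and the part this had in the levels was not tested. Between 98.3% and 100% of the bases of mt-Co2, mt-Atp6, mt-Co3, mt-Nd3 and mt-Nd4l lie in words of 50 bases that an annotated copy shares, and a read within such a word cannot be assigned by sequence alone. For mt-Co1 this share is 74.9% over all annotated copies. Gm29216 alone shares 31.0% of its bases this way. Gm13340, a copy on chromosome 2, shares 55.1%, but its longest identical run is 148 bases. No annotated copy of mt-Atp8 was found, although its place falls within the span of the block. All levels are given as deposited.

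**Figure D1:**
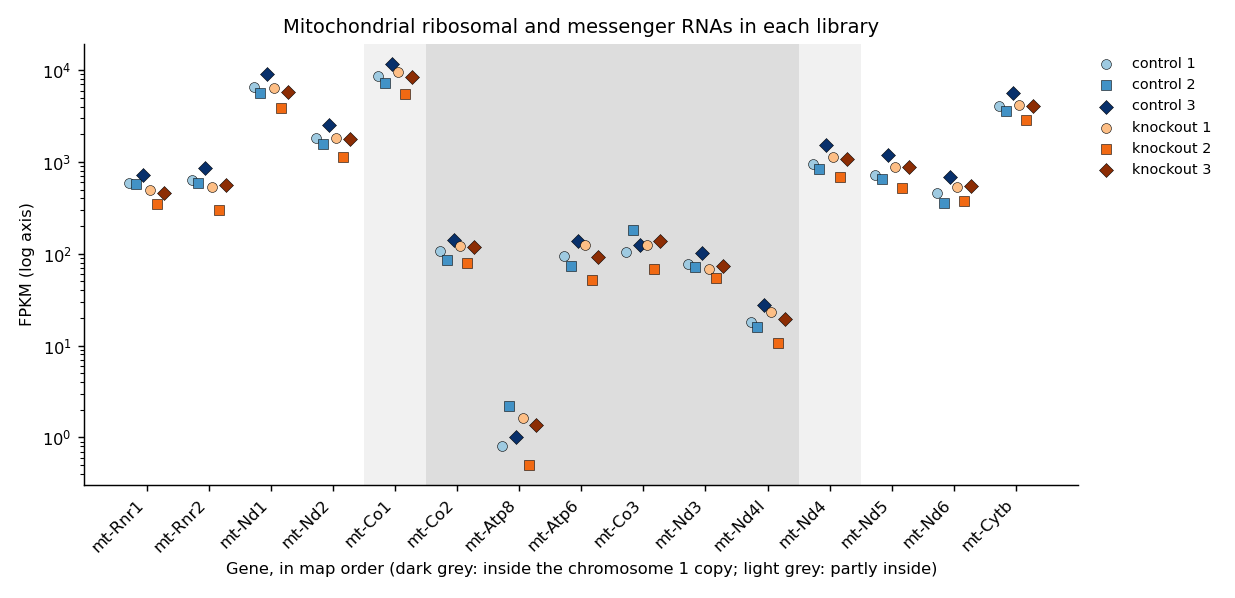
FPKM (log axis) of the 2 ribosomal and 13 messenger RNAs in map order, 1 point per library, with genes inside the chromosome 1 copy on dark grey and genes partly inside on light grey. The 6 genes on dark grey have means of 1.25 to 124 FPKM, below all genes outside it.

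Copies of genes wholly inside the block carried reads of the same order as those genes. Gm28661, the copy of mt-Co2, had 845, 685 and 1204 reads in control replicates 1 to 3 and 804, 638 and 872 in knockout replicates 1 to 3, against 1360, 1040 and 1850 and 1506, 1058 and 1430 for mt-Co2 itself. Gm10925, the copy of mt-Atp6, had between 0.844 and 1.05 times the reads of mt-Atp6. By contrast, Gm28439 had at most 0.00909 times the reads of mt-Nd4, a gene with bases outside the copy. By FPKM, knockout replicate 2 was lowest in 6 of these 7 copies and control replicate 3 highest in 6. Gm13340 on chromosome 2, a copy of all of mt-Co1 with 37 differing bases of 1545, stood at 2.47 to 5.94 FPKM. Copies that are not annotated as transcripts were not searched.

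**Figure D2:**
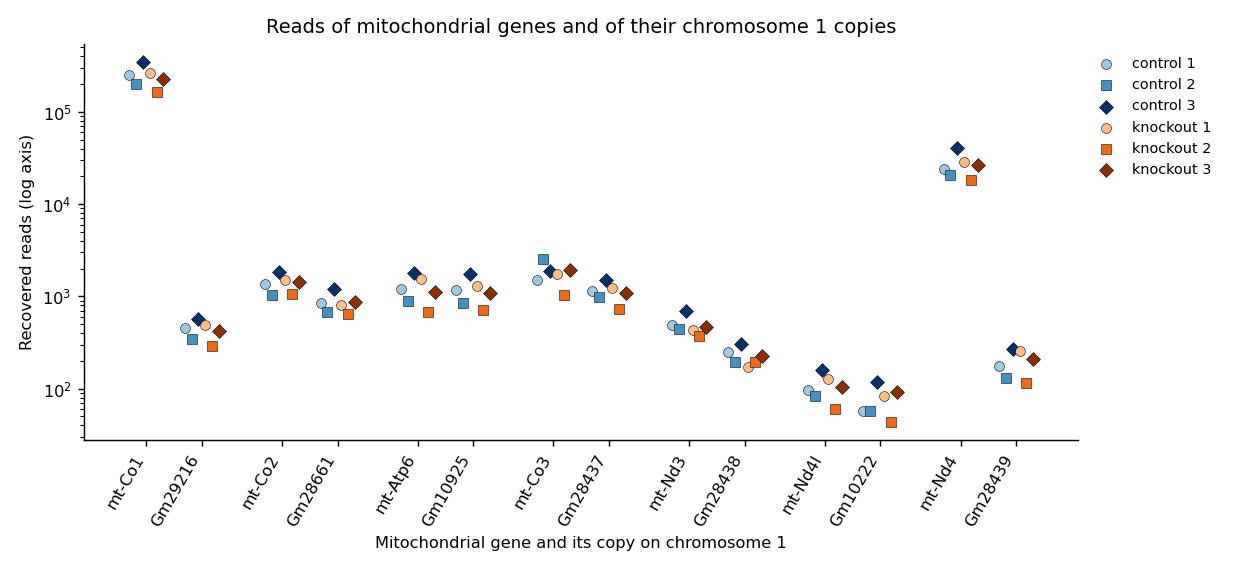
Recovered reads (log axis) of 7 mitochondrial genes and, beside each, of its chromosome 1 copy, 1 point per library. mt-Atp6 and Gm10925 have nearly equal reads, while mt-Co1 and mt-Nd4 exceed their partial copies many times over.

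Together the 37 genes made up 6.81%, 6.09% and 9.03% of the FPKM sum in control replicates 1, 2 and 3 and 7.10%, 4.64% and 6.86% in knockout replicates 1, 2 and 3. Control replicate 3 was the highest and knockout replicate 2 the lowest, and the groups overlapped. The group means were 7.31% ± 1.54 (SD, n = 3) and 6.20% ± 1.35 (SD, n = 3). Haemoglobin transcripts, which mark red blood cells, took 1.98%, 2.74% and 4.32% of the control sums and 3.85%, 2.15% and 4.31% of the knockout sums. The summed level of 10 erythroid markers, none of them at 0, ran from 8053 to 18024 FPKM in control and from 7920 to 16538 FPKM in knockout libraries. This sum was highest in control replicate 3 and lowest in knockout replicate 2, like the mitochondrial share, but control replicate 1 was close (8053 against 7920 FPKM). Hba-a1, Hbb-y, Hbb-bh1 and Hbb-bs were highest in control replicate 3 and the other markers in knockout replicate 3. Hbb-y, Hba-x, Alas2 and Slc4a1 were lowest in control replicate 1, as was the haemoglobin share, and the others in knockout replicate 2. The part of red blood cells in the mitochondrial share was not tested. The summed level of 9 ventricular cardiomyocyte markers was lowest in control replicate 3, at 11551 FPKM, against 12725 to 14953 FPKM in the other 5 libraries. Its largest term was Actc1, at 5583 FPKM there and 6940 to 8388 FPKM in the other 5. Myh7 and Nkx2-5 were also lowest in control replicate 3, while Myl2, Myl3, Tnnt2, Gata4, Irx4 and Hey2 were lowest in other libraries. In bulk tissue, fewer cells of a type and less RNA per cell cannot be told apart.

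None of the mitochondrially encoded genes changed between the genotypes by the test. Of the 31 members that reached this mean, limma called 0 higher and 0 lower, 4 had an unadjusted p under 0.05, and the same test found an unadjusted p under 0.05 in 16.1% of all genes tested. Limma voom on the recovered reads called 1 of 31 lower, in a fit that called 616 of 14143 genes either way. By voom 5 members had an unadjusted p under 0.05, and that share over all genes is not given here. The fitted log2 change was below 0 for all 13 messenger and both ribosomal RNAs, with a median over the messenger RNAs of -0.24, against -0.01 over all genes tested. Without knockout replicate 2 that median was 0.06, with 6 of 13 below 0, and without control replicate 3 it was -0.07, with 8 of 13 below 0. The number of messenger RNAs below 0 was 9 of 13 after quantile normalization, 11 after rescaling to TPM or to a sum without mitochondrial and haemoglobin genes, and 12 by limma voom or with library weights. Rescaling moved all genes: the median over all genes tested was 0.060 as TPM and 0.045 on that sum, where the messenger medians were -0.16 and -0.17. The messenger RNAs share their precursors, so they are not independent of each other.

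The genes were high or low together in the same libraries. Control replicate 3 had the highest level of 11 of the 13 messenger RNAs, and knockout replicate 2 had the lowest level of 12. Among all genes tested, control replicate 3 was highest for 18.5% and knockout replicate 2 lowest for 15.9%. The exceptions were mt-Co3, which was highest in control replicate 2, mt-Atp8, also highest there, and mt-Nd6, which was lowest in control replicate 2. Within the 3 controls alone the highest mt-Co1 level was 1.598 times the lowest, while the ratio of the knockout to the control mean was 0.846.

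**Figure D3:**
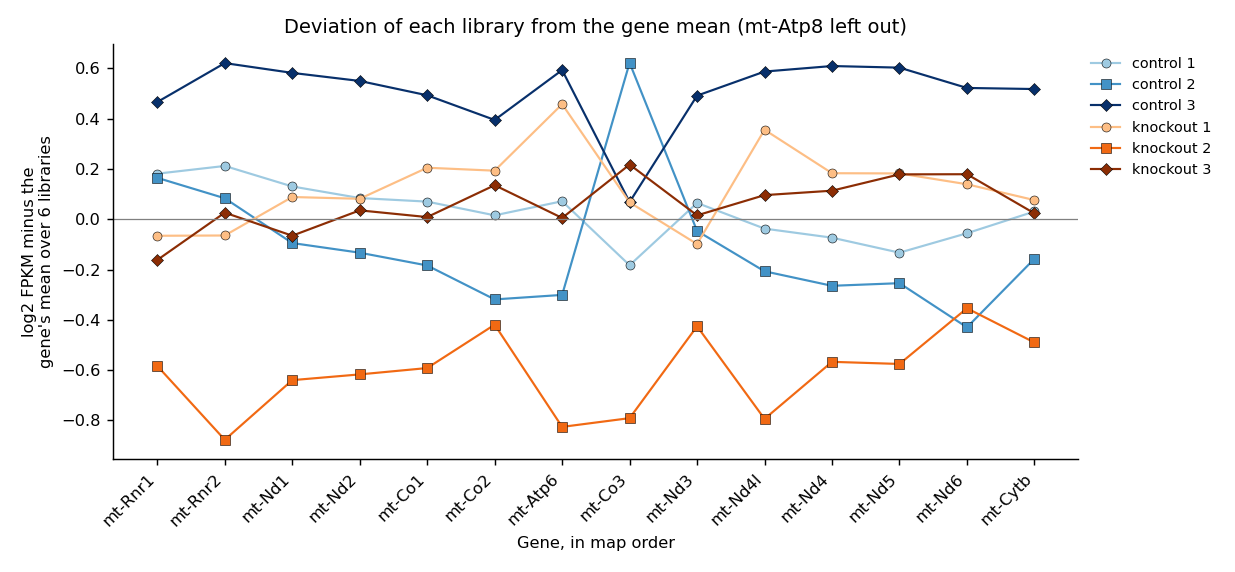
Log2 FPKM of each gene minus that gene's mean over the 6 libraries, in map order, 1 line per library, with mt-Atp8 left out for its low reads. Control replicate 3 lies on top for all genes but mt-Co3, and knockout replicate 2 lies lowest for all but mt-Nd6.

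Complex I, the entry point for electrons from NADH, has 7 of the mitochondrial messenger RNAs. mt-Nd1 was at 6589, 5637 and 9010 FPKM in control replicates 1 to 3 and at 6400, 3864 and 5753 FPKM in knockout replicates 1 to 3. Its groups overlapped (log2 change -0.41, SE 0.24, limma adjusted p = 0.45). mt-Nd2 was at 1822, 1567 and 2515 FPKM in control and at 1818, 1121 and 1761 FPKM in knockout libraries, again overlapping. Both genes lie upstream of mt-Co1 and encode core membrane subunits of the complex. mt-Nd4 stood at 954, 835 and 1531 FPKM in control and at 1139, 677 and 1086 FPKM in knockout libraries. mt-Nd5, the largest mitochondrial subunit of the complex, stood at 715, 658 and 1191 FPKM in control and at 890, 526 and 888 FPKM in knockout libraries. For both of these, knockout replicates 1 and 3 lay above control replicates 1 and 2 and below control replicate 3.

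mt-Nd6 is the only messenger RNA on the minus strand. It was at 461, 356 and 688 FPKM in control and at 528, 375 and 543 FPKM in knockout libraries, a log2 change of -0.02 with a 95% interval from -0.59 to 0.54. After rescaling to TPM, its change was 0.060, beside a median over all genes of 0.060 on that scale, and after quantile normalization it was 0.12, against a median of -0.02. Within the chromosome 1 copy, mt-Nd3 was at 76.8, 71.1 and 103 FPKM in control and at 68.5, 54.6 and 74.2 FPKM in knockout libraries. mt-Nd4l was at 17.9, 15.9 and 27.6 FPKM in control and at 23.5, 10.6 and 19.6 FPKM in knockout libraries. mt-Nd4l is 297 bases long and overlaps the start of mt-Nd4 by 7 bases. Neither of these genes separated the groups.

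Cytochrome b, encoded by mt-Cytb, is the mitochondrial subunit of complex III. It stood at 4064, 3567 and 5695 FPKM in control and at 4194, 2832 and 4043 FPKM in knockout libraries, so that knockout replicates 1 and 3 lay within the control range (log2 change -0.26, SE 0.22, limma adjusted p = 0.62).

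Cytochrome oxidase, complex IV, reduces oxygen to water and takes its catalytic core from mt-Co1, mt-Co2 and mt-Co3. mt-Co1 had the highest level of the 37 genes in every library, with 8705, 7300 and 11668 FPKM in control and 9556, 5503 and 8342 FPKM in knockout libraries. Its reads were 44.2% to 47.1% of all mitochondrial messenger reads. The fitted change was -0.25 on the log2 scale, with a 95% interval from -0.85 to 0.34. mt-Co2 was at 108, 85.4 and 140 FPKM in control and at 122, 79.7 and 117 FPKM in knockout libraries, with a change of -0.06. After rescaling to TPM this was 0.023, where the median of all genes was 0.060. mt-Co3 was at 105, 183 and 125 FPKM in control and at 125, 68.7 and 138 FPKM in knockout libraries, with control replicate 2 alone at the top.

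ATP synthase has 2 mitochondrial subunits, whose reading frames overlap on 1 messenger RNA. The overlap is shown because it takes 21.1% of the bases of mt-Atp8. It is chrM:7927-7969, plus strand, with the start codon of mt-Atp6 and the stop codon of mt-Atp8 in capitals.
mt-Atp8/mt-Atp6 overlap: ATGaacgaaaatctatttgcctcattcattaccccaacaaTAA
mt-Atp8 had only 3, 8 and 4 reads in control and 6, 2 and 5 reads in knockout libraries, too few for a difference to be detectable. mt-Atp6, on the same messenger RNA, had a mean of 1202 reads, so the reads of mt-Atp8 do not give the level of that RNA. The reason for the gap was not tested. Its 204 bases also lie inside the span of the chromosome 1 copy. mt-Atp6 was at 95.4, 73.7 and 137 FPKM in control and at 125, 51.2 and 91.1 FPKM in knockout libraries, and the groups overlapped. Adding the reads of Gm10925 raised its mean level 1.95-fold and left it without a call.

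The ribosomal RNAs form the cores of the small and large subunits of the mitochondrial ribosome, and they were 2 of the 3 members whose groups did not overlap. All 3 lay lower in the knockout. Among all genes tested the groups were apart in 21.4%, with the knockout lower in 10.4% and higher in 11.0%. mt-Rnr1, the small subunit RNA, was at 587, 580 and 715 FPKM in control and at 494, 345 and 463 FPKM in knockout libraries, with group means of 627 ± 75.9 and 434 ± 78.5 (SD, n = 3 each; log2 change -0.54, SE 0.15, limma adjusted p = 0.13). mt-Rnr2, the large subunit RNA, was at 643, 588 and 853 FPKM in control and at 531, 302 and 565 FPKM in knockout libraries, with group means of 695 ± 140 and 466 ± 143 (SD, n = 3 each; log2 change -0.61, SE 0.25, limma adjusted p = 0.28). The difference did not pass the threshold for either gene. The ratio of both RNAs together to the messenger FPKM sum was 0.0518, 0.0574 and 0.0478 in control and 0.0410, 0.0427 and 0.0450 in knockout libraries, again without overlap. Taken alone, mt-Rnr1 overlapped on that scale, at 2.47%, 2.85% and 2.18% in control and 1.98%, 2.28% and 2.02% in knockout libraries. mt-Rnr2 alone did not overlap. Set against mt-Nd1 in place of the sum, both ribosomal RNAs overlapped. How far the library preparation selected poly(A) RNA is not stated in the labels, so these values do not give the abundance of ribosomal RNA in the cell.

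Transfer RNAs are shorter than most sequenced fragments, and few reads were counted to them. Of the 22 genes, 10 had a mean of at least 10 reads, 12 had fewer, and 4 of these (mt-Tf, mt-Td, mt-Tk and mt-Tt) had 0 reads in every library. A count of 0 allows up to 3 reads per library, which for these 4 genes is 2.21 to 2.59 FPKM. Because 1 read in so short a gene already exceeds the filter of 0.5 FPKM in a library, 16 transfer RNAs were tested, and 6 of those had a mean under 10 reads. The 3 with the most reads are printed because each kept over 200 reads in every library. All lie on the minus strand, and the capitals mark the anticodon.
mt-Tc: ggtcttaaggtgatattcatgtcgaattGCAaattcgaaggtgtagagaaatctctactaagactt
mt-Tn: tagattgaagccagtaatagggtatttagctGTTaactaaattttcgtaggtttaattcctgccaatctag
mt-Tp: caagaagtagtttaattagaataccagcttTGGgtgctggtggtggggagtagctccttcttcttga
They carry cysteine (chrM:5192-5257), asparagine (chrM:5089-5159) and proline (chrM:15356-15422). mt-Tc and mt-Tn face each other across an unannotated gap of 32 bases, the place of the origin of light strand replication, and mt-Tp is the last gene before the control region. All other gaps between neighbouring genes have 5 bases or fewer.

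mt-Tn was the member with the smallest p. It had 460, 393 and 516 reads in control and 256, 214 and 336 reads in knockout libraries, or 351, 311 and 377 against 200, 155 and 265 FPKM. The highest knockout library lay below the lowest control, and the ratio of means was 0.597. The log2 change was -0.77 (SE 0.18), with a 95% interval from -1.19 to -0.35, and the limma adjusted p was 0.0847, above the threshold. It passed in 3 of the other fits, with an adjusted p of 0.0265 by limma voom on recovered reads, 0.037 with the replicate number as a block and 0.0393 without knockout replicate 3. Over the remaining alternatives its adjusted p lay between 0.0606 and 0.224. Its neighbour mt-Tc was at 1635, 1074 and 1637 FPKM in control and at 698, 604 and 1353 FPKM in knockout libraries, where knockout replicate 3 reached into the control range (log2 change -0.78, SE 0.31, limma adjusted p = 0.27). mt-Tp was at 491, 550 and 774 FPKM in control and at 572, 366 and 496 FPKM in knockout libraries, with overlap.

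**Figure D4:**
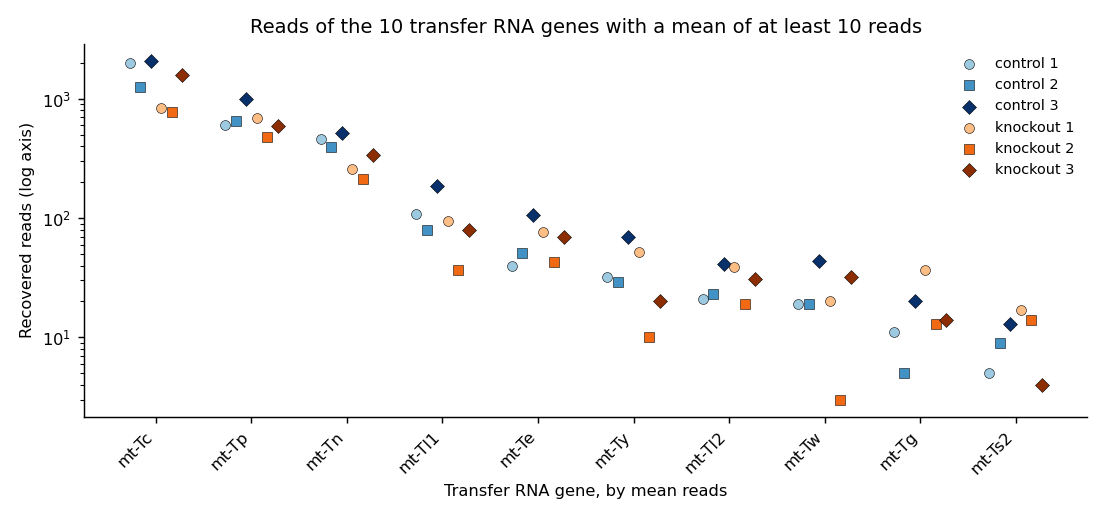
Recovered reads (log axis) of the 10 transfer RNA genes with a mean of at least 10 reads, 1 point per library. mt-Tn is the only one whose knockout libraries (214 to 336 reads) all lie below its controls (393 to 516 reads).

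The other transfer RNAs had far fewer reads. mt-Tl1, for leucine, which lies between mt-Rnr2 and mt-Nd1, had 109, 80 and 187 reads in control and 95, 37 and 79 reads in knockout libraries. mt-Te, mt-Ty, mt-Tl2, mt-Tw, mt-Tg and mt-Ts2 had between 3 and 107 reads in any library. Their fitted changes ran from -0.86 for mt-Tw to 0.79 for mt-Tg, and neither passed (limma adjusted p = 0.61 and 0.47). The 12 transfer RNAs with a mean under 10 reads had at most 28 reads in a library. Among the 10 better counted ones, 6 had a fitted change below 0 and 4 above 0.

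Dividing each gene by the summed FPKM of the 13 messenger RNAs in the same library removes what all genes have in common in that library. The highest mt-Nd1 level was 2.33 times the lowest, while its share of the messenger sum varied 1.10-fold, and mt-Nd2 went from 2.24-fold to 1.06-fold. The spread of other genes remained, with mt-Tc at 2.71-fold before and 2.47-fold after, and mt-Ts2 at 4.20-fold before and 4.85-fold after. mt-Nd1 made up 27.8%, 27.7% and 27.4% of the sum in control and 25.6%, 25.5% and 25.2% in knockout libraries, so the groups lay apart by more than either spread (27.6% ± 0.178 and 25.4% ± 0.227, SD, n = 3 each). mt-Co1 took 36.7%, 35.9% and 35.5% in control and 38.2%, 36.3% and 36.5% in knockout libraries, with overlap. These shares are a description, without a test, and a gene with a lower share raises the shares of the rest.

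**Figure D5:**
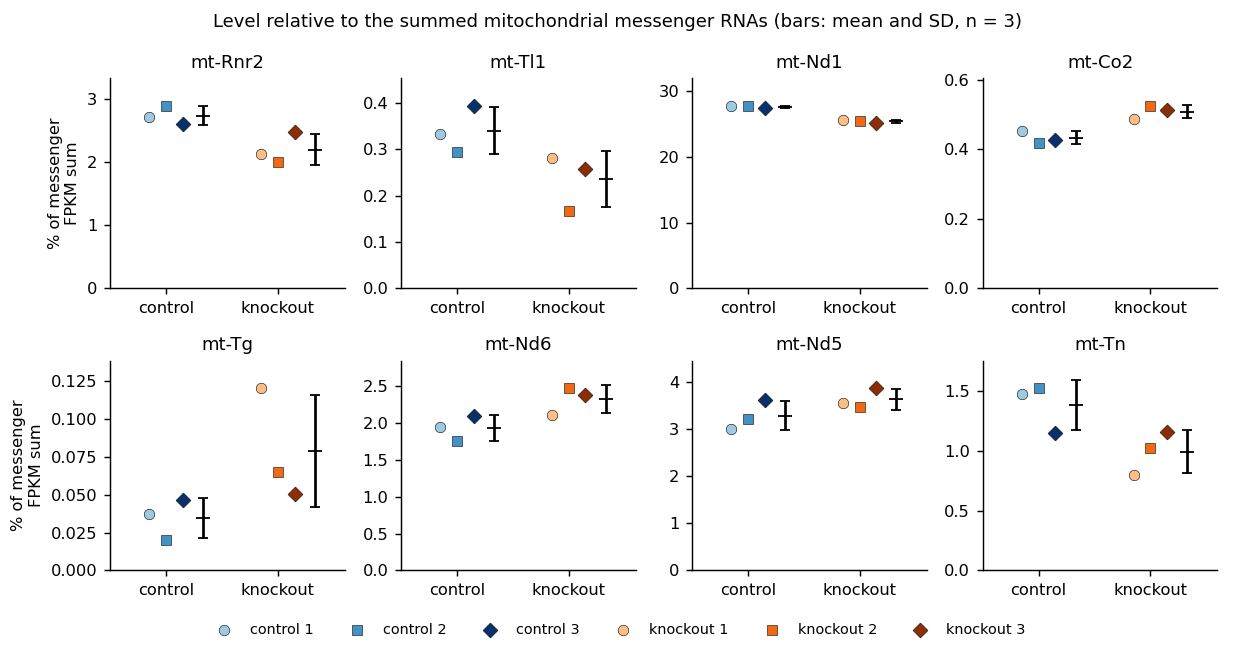
Level of 8 genes as a percentage of the summed FPKM of the 13 messenger RNAs in the same library, 1 point per library, with the mean and SD of each group (n = 3). mt-Nd1, mt-Rnr2 and mt-Tl1 lie lower and mt-Co2, mt-Tg and mt-Nd6 higher in every knockout library, while mt-Nd5 and mt-Tn overlap.

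Of the 25 genes compared this way (the messenger and ribosomal RNAs and the 10 transfer RNAs above), 3 had a higher and 3 a lower value in every knockout library. Among all genes tested, scaled by the same sum, the groups were apart in 10.1%, with 9.77% above and 0.353% below. That sum averaged 25632 FPKM in control and 21003 FPKM in knockout libraries, which by itself moves other genes upward on this scale. The messenger RNAs are part of the sum, so these shares are not a like reference for the members. Without control replicate 3 the counts of members were 7 higher and 5 lower, without knockout replicate 2 there were 6 higher, and without knockout replicate 3 there were 6 lower. Leaving out a library can only keep or raise such counts. The shares over all genes above are for all 6 libraries, and those with a library left out are not given here. With all 6 libraries, the lower ones were mt-Nd1, mt-Rnr2 and mt-Tl1, which are neighbours on the map. mt-Rnr2 came to 2.71%, 2.89% and 2.60% of the messenger sum in control and to 2.12%, 1.99% and 2.47% in knockout libraries. The higher ones were mt-Co2, mt-Tg and mt-Nd6. mt-Nd6 came to 1.94%, 1.75% and 2.10% in control and to 2.11%, 2.47% and 2.37% in knockout libraries. mt-Co2 and mt-Tg lie within the span of the chromosome 1 copy, and mt-Tg had only 5 to 37 reads. By reads in place of FPKM, mt-Nd6 overlapped and mt-Nd2 joined the lower genes. mt-Nd5 missed separation through control replicate 3 alone, at 3.02%, 3.23% and 3.63% in control against 3.56%, 3.47% and 3.88% in knockout libraries.

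Set against mt-Nd1 itself, a choice made after the values were seen, 9 of the other 24 genes were higher in every knockout library and 0 were lower. The share of mt-Nd1 in the messenger sum was by then known to be lower in every knockout library. A ratio to it therefore tends upward in the knockout, and the direction of these counts was largely set in advance. Among all genes tested, 16.6% lay above and 0.226% below on this scale. The 9 included 7 messenger RNAs, and these are mt-Nd2, mt-Co1, mt-Co2, mt-Nd4, mt-Nd5, mt-Nd6 and mt-Cytb. Apart from mt-Nd1, they hold every messenger RNA that lies at least in part outside the chromosome 1 copy, and also mt-Co2. The ratio of mt-Co1 to mt-Nd1 was 1.32, 1.30 and 1.30 in control and 1.49, 1.42 and 1.45 in knockout libraries. The ratio of mt-Nd5 to mt-Nd1 was 0.109, 0.117 and 0.132 in control and 0.139, 0.136 and 0.154 in knockout libraries. Each of these ratios shares the same denominator, so they are not separate observations.

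No nuclear gene in the 5 lists that act with the mitochondrial genome, or in the haemoglobin list, passed the test. Of 76 nuclear subunits of oxidative phosphorylation, 0 rose and 0 fell by limma, with a median log2 change of -0.20 and 31 with an unadjusted p under 0.05. For 32 of them the groups were apart with the knockout lower, and for 2 with the knockout higher. The same measures over all genes tested were a median of -0.01, 16.1% with an unadjusted p under 0.05, 10.4% apart with the knockout lower and 11.0% with it higher. Cox6c, a subunit of complex IV, was at 148 ± 15.5 FPKM (SD, n = 3) in control and 115 ± 2.77 (SD, n = 3) in knockout ventricles (limma adjusted p = 0.0847), and Cox7a1, the muscle form of another, was at 87.6 ± 5.42 and 120 ± 18.2 FPKM (SD, n = 3 each; limma adjusted p = 0.104). Among 24 genes of mitochondrial transcription and DNA maintenance 0 were called either way, with a median log2 change of -0.11 and 8 with an unadjusted p under 0.05. Tfam, which packages mitochondrial DNA and starts its transcription, was at 17.9 ± 0.652 and 15.8 ± 0.855 FPKM (SD, n = 3 each), and Mgme1, a nuclease of mitochondrial DNA replication, at 8.30 ± 0.292 and 6.83 ± 0.906 FPKM (SD, n = 3 each).

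Among 34 tested genes of mitochondrial RNA processing and stability 0 were called, with a median of -0.12 and 6 with an unadjusted p under 0.05. They include Mrm3, which methylates mt-Rnr2, at 7.60 ± 0.624 and 6.25 ± 0.151 FPKM, and Hsd17b10, a subunit of the nuclease that cuts the 5′ ends of mitochondrial transfer RNAs, at 98.2 ± 6.34 and 83.7 ± 4.96 FPKM (SD, n = 3 each). Of 22 markers of mitochondrial mass 0 were called, 5 had an unadjusted p under 0.05, and all 22 fitted changes lay below 0, with a median of -0.15, against 16.1% with an unadjusted p under 0.05 and a median of -0.01 over all genes tested. Phb, which encodes prohibitin of the inner membrane, was at 102 ± 4.90 and 87.6 ± 4.38 FPKM, and Tomm22, a receptor for imported proteins, at 93.5 ± 7.21 and 78.6 ± 4.12 FPKM (SD, n = 3 each). Of 17 nuclear regulators 0 were called and 1 had an unadjusted p under 0.05, with a median of -0.01. Klf15, a transcription factor of cardiac metabolism, was at 2.83 ± 0.251 and 2.01 ± 0.190 FPKM, and Esrrb, an estrogen-related receptor, at 1.54 ± 0.239 and 1.98 ± 0.280 FPKM (SD, n = 3 each). Of 8 haemoglobin genes 0 were called and 0 had an unadjusted p under 0.05, with a median of 0.03. Hba-x, an embryonic alpha globin, was at 548 ± 298 and 710 ± 230 FPKM, and Hbq1b, a theta globin, at 1.59 ± 0.785 and 2.27 ± 0.251 FPKM (SD, n = 3 each). Without control replicate 3, limma called 1 nuclear subunit, 1 gene of transcription and maintenance, 1 of RNA processing and 2 of mitochondrial mass lower, and 1 haemoglobin gene higher. The share of all genes called in that fit is not given here, so these counts are not read as results about the lists. In the other direction, limma voom on recovered reads called 2 of 76 nuclear subunits higher. That fit called 616 of 14143 genes either way. After rescaling to a sum without mitochondrial and haemoglobin genes, 1 of 76 was called higher, with 444 of 14149 genes called either way.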

How the data were processed

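RNA from heart ventricles of E12.5 embryos was measured in 3 control and 3 LSD1-CKO libraries, grouped by the sample descriptions. Per the submitters' processing notes, the build was mm10 and the tools were featureCounts 1.5.0-p3, HISAT2 2.0.5, fastp and CASAVA. Their annotation release, and how featureCounts was set, is not given in the sources used here. FPKM for 54532 gene IDs is the unit the authors deposited. Of these, 54495 matched GENCODE M21 (GRCm38), which gave symbols and exon lengths. FPKM times exon length gave whole reads within 0.02 for 98.1% to 98.5% of genes under 30 reads. The total behind the FPKM scale followed the libraries' median-of-ratios size factors, not their summed reads. limma 3.58.1 (R 4.3.3) was run two-sided on log2(FPKM + 1) with a mean-variance trend, on genes whose mean reached 0.5 FPKM, with Benjamini-Hochberg adjustment over all of them. The added 1 makes fold changes of low genes too small. Identical stretches were searched with 50-base words in the annotated transcripts, and copies with at least 100 identical bases and 0.5 FPKM were named. Members, lists and tests were chosen with earlier results of these data known. Named genes are the messenger and ribosomal RNAs, transfer RNAs with at least 10 mean reads, and per list up to 3 called genes or, with none called, the 2 of lowest p. The symbols Atp5pb and Prorp were not matched. The fit was tested on simulated data in which genes were drawn independently, unlike the members, which were high or low together. Counting limits cover counting error only. Alternatives covered the pseudocount, filters, scaling, voom, library weights, a replicate block, nuclear copies and each library left out. The ratio to mt-Nd1 and the other denominators were chosen after seeing the data. Tables and plots used matplotlib 3.10.9, numpy 2.4.6, pandas 2.3.3 and Python 3.11.15.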

Additional observations from a re-analysis of the deposited data

How the results depend on the processing

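No member was called higher under any alternative. With the replicate number as a block 1 gene, mt-Tn, was called lower, and so it was by voom on recovered reads (1), and the fits with 1 library left out gave 0 to 1. The fit that gave 1 was that without knockout replicate 3, which called 146 of 14149 genes either way. Calls over all genes went from 336 to 284 with the block. The numbers were not shown to pair the samples, since the correlations of same-numbered libraries were -0.0021, 0.1396 and 0.1642, and control replicate 1 correlated best with knockout replicate 2. By recovered reads the mitochondrial share was 2.94%, 2.60% and 4.13% in control and 3.22%, 1.98% and 2.995% in knockout libraries. Another denominator was the summed FPKM of the 5 messenger RNAs outside the chromosome 1 copy. On it, 5 of the 25 genes compared lay higher and 3 lower in every knockout library. Of those 5 messenger RNAs, mt-Cytb and mt-Nd6 lay higher and mt-Nd1 lower, while mt-Nd2 and mt-Nd5 overlapped. The share over all genes on this denominator is not given here. With 1 library left out, 4 to 7 were higher and 3 to 6 lower on the main denominator. Leaving out a library can only keep or raise these counts, and the matching shares over all genes are not given here.

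The sign of small log2 changes turned. mt-Nd6 came to 0.048 with library weights, 0.12 after quantile normalization, 0.060 as TPM, 0.049 on a sum without mitochondrial and haemoglobin genes and 0.032 by voom. mt-Co2 came to 0.029 after quantile normalization, 0.023 as TPM and 0.012 on that sum, and quantile normalization gave 0.031 for mt-Nd4 and 0.011 for mt-Nd5. With 1 library left out, values ran from -0.24 to 0.23 for mt-Nd6, -0.23 to 0.13 for mt-Co2, -0.36 to 0.079 for mt-Nd4 and -0.31 to 0.12 for mt-Nd5. They ran from -0.43 to 0.10 for mt-Nd4l, -0.52 to 0.11 for mt-Atp6, -0.27 to 0.15 for mt-Atp8 and -1.49 to 0.047 for mt-Tw. The ranges were -0.26 to 0.40 for mt-Te, -0.16 to 0.39 for mt-Tl2 and -0.13 to 0.78 for mt-Ts2. The cause was not tested. Counts over all genes lay between 122 with no filter and 616 by voom. The low reads of transfer RNAs and mt-Atp8, and the 3 libraries in each group, limit what could be called.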
